A study of Mus musculus with 9 samples.

Results

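Mouse pancreatic ductal adenocarcinoma (PDAC) cells that had been in the lung for 5 days were compared with cells recovered after 6 weeks and sorted for a high Gstt1-mCherry signal. All 6 libraries carry 1 genotype label, which names SIRT6F/F, p48-Cre and p53F/+ among its parts, the same cell type label (PDAC lung metastatic tumour cells with GFP and Gstt1-mCherry) and injection into the tail vein. The early group is DTC, 3 libraries of GFP-positive cells at 5 days. The late group is mCherryHigh, 3 libraries numbered 1, 5 and 6, of GFP-positive cells at 6 weeks. The 3 mCherryLow libraries of the same series, also at 6 weeks, are given only as reference levels. Of the 24012 genes in the expression table, the 19700 with at least 1 CPM (the reads of a gene scaled to the library total) in 3 or more of the 6 libraries were compared.

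The alleles and the reporter are shared by both groups. p48-Cre, driven from the Ptf1a locus, recombines floxed alleles in cells of the pancreas, and SIRT6 is a chromatin deacylase. The labels name no cell line, host strain or animal for any library. The p-values therefore measure only the spread between these libraries, and that spread may be technical. The DTC gate used GFP alone and the mCherryHigh gate used the reporter as well. Time in the lung, the gate and the code series of the DTC libraries in the labels cannot be told apart.

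Tumour cells that enter the lung from the blood first arrest in capillaries among endothelial cells and phagocytes, and only some go on to grow as colonies. Growing colonies make their own matrix and recruit vessels. Gstt1 encodes a theta-class glutathione S-transferase, an enzyme that couples glutathione to electrophiles. Glutathione is the main small thiol of the cell, and the transcription factor NRF2 controls many of the genes that make it, use it or supply the NADPH that keeps it reduced.

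Library totals ranged from 923988 to 2052623 reads in DTC and from 643748 to 9800173 in mCherryHigh. In mCherryHigh 1 a level of 1.55 CPM is 1 read, and in mCherryHigh 5 and 6 a level of 0.102 CPM is 1 read. A count of 0, which allows up to 3 reads, allows a level of up to 4.66 CPM in mCherryHigh 1, the shallowest, for counting error only. At a common depth, mCherryHigh 1 had 19500 genes above 0 against 14650 for mCherryHigh 5, and DTC had 19064 to 20015. The keratins of simple epithelium, which mark PDAC cells, went against the label in DTC 3. Krt8, Krt18 and Krt19 summed to 320.4 CPM there, against 5139 in DTC 1, 5809 in DTC 2 and 1874 to 5774 in mCherryHigh. DTC 3 also had the most RNA of macrophages and T cells, so the list counts below are given with and without it.

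In the limma test, 4532 genes were higher and 1417 lower in DTC at an adjusted p under 0.05, which is 23.0% and 7.19% of the genes tested (30.2% in either direction). Every DTC library was above every mCherryHigh library for 31.4% of genes and below for 13.2%. A gene that met this adjusted p is referred to as called. Without DTC 3 the counts were 2912 higher and 1004 lower, without DTC 1 2627 and 590, and without DTC 2 4024 and 1467. Without mCherryHigh 1 they were 5244 and 1507, without mCherryHigh 5 2831 and 716, and without mCherryHigh 6 3000 and 854. List counts with a library left out have to be read beside these and not beside the shares with all libraries. The median difference over all genes was 0.55 on the log2(CPM + 1) scale, DTC minus mCherryHigh, so a list of genes has to be read against that value and not against 0. With quantile normalization, which sets this median to -0.10, the calls were 1615 higher and 1535 lower, and higher calls made up 51.3% of all calls in place of 76.2%. Median-of-ratios scaling gave 67.8% and the edgeR test on whole reads 58.4%.

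Most of the genes higher in DTC had low levels in mCherryHigh. Of the 4532, 3531 had a mean under 5 CPM in mCherryHigh. With every mCherryHigh library under 1 CPM, 840 genes passed the filter, and 766 of these are among the 4532. Those 766 entered the test only through the group where they are high, so their calls are no support for a rise. The share of all genes called higher includes them. Chi3l3, C1qa, Marco, Sftpc, Bpifa1 and Clec4n, named below, reached 1 CPM in mCherryHigh only through 1 read of mCherryHigh 1. Their levels are a description as well. Olfactory receptor genes, which serve smell in sensory neurons, give a level to set beside the low-level rises. Of the 286 tested, 180 were called higher in DTC and 0 lower. Their mean per gene was 4.24 to 10.8 CPM in the DTC libraries, and 2.99, 0.188 and 0.393 CPM in mCherryHigh 1, 5 and 6. The highest single receptor reached a mean of 48.4 CPM in DTC. Among the 6943 genes whose higher group mean was above that level, 1000 were called higher and 1168 lower, and their median difference was -0.30. For the lists below, the number of higher members past that olfactory level is given where any were higher. Whether the same source of reads lies behind the low-level rises was not tested.

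**Figure D1:**
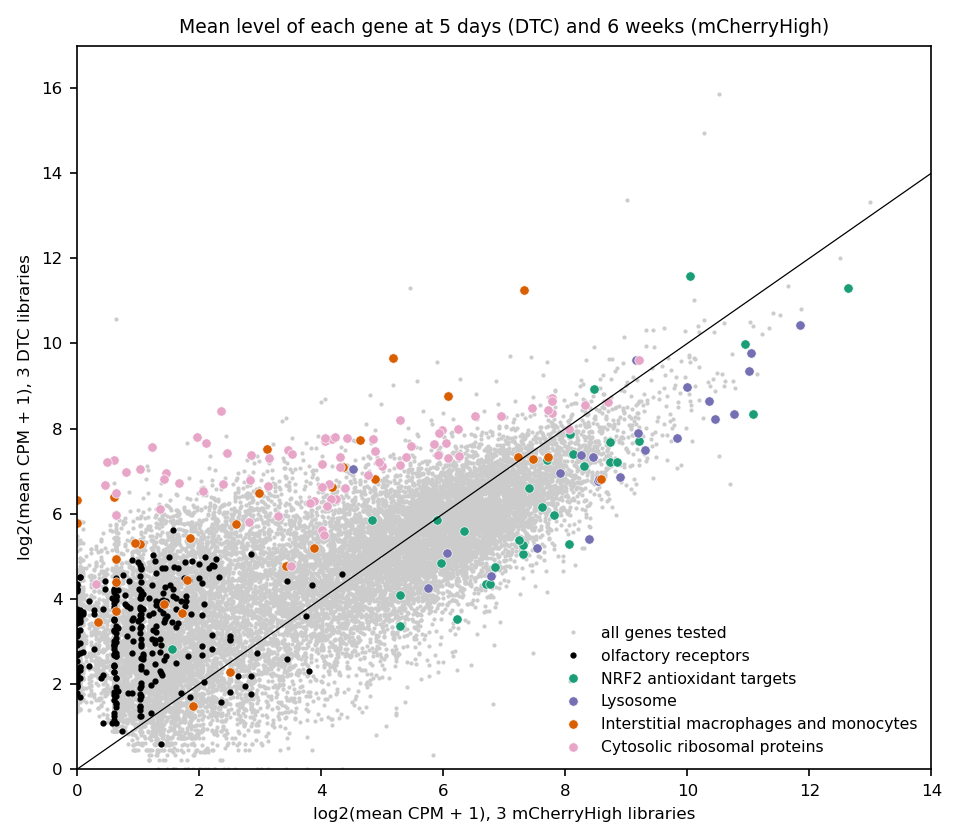
Mean level of each tested gene in 3 DTC libraries (vertical axis) against 3 mCherryHigh libraries (horizontal axis), both as log2(mean CPM + 1), with the line of equal level. Olfactory receptors (black) lie above the line at low level, lysosomal genes and NRF2 targets mostly below it at high level, and ribosomal protein and macrophage genes mostly above it.

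Reads of a repeat-like kind took a large share in DTC. Gm10800 and Gm10801, predicted genes, and Lars2, the mitochondrial leucyl-tRNA synthetase, together held 3.47% to 15.1% of reads in DTC and 0.127% to 0.585% in mCherryHigh. These 3 were chosen after their values were seen. With them taken out of the totals, 4963 genes were higher and 1174 lower. Of the tested pseudogenes, 468 of 1359 were higher and 8 lower.

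The gene behind the reporter was lower in DTC. Gstt1 (ENSMUSG00000001663) was at 6.09, 11.2 and 7.58 CPM in DTC 1, 2 and 3 and at 60.6, 48.4 and 50.9 CPM in mCherryHigh 1, 5 and 6. The groups did not overlap, and the difference was -2.58 (SE 0.49) with an adjusted p of 0.0042. An exact two-sided permutation test of the means gave p = 0.1, the smallest that 3 against 3 libraries allow. The mCherryLow mean was 18.8 CPM, above every DTC library. Because mCherryHigh cells were gated on a Gstt1 reporter and DTC cells were not, the gate and the time in the lung cannot be told apart here.

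Sirt6 and Trp53, named in the genotype, were not called. Sirt6 was read at 9.13, 3.41 and 9.74 CPM in DTC and 24.9, 7.55 and 14 CPM in mCherryHigh, with overlap. The table gives no exon-level values, so this does not check the recombined allele. Trp53, which encodes p53, was at 37.3, 39.5 and 43.3 CPM in DTC and 7.77, 13 and 26.5 CPM in mCherryHigh, and the adjusted p was 0.0593.

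Several glutathione transferases were lower in DTC. Of 21 tested members, 6 were called lower and 0 higher, against 7.19% and 23.0% of all genes, and the median difference was -1.02 beside 0.55 for all genes. The lower members were Gstt1, Gstt3, Gsta2, Gsta3, Gstm7 and Gstp1. The count includes Gstt1, whose reporter set the mCherryHigh gate, and Gstm7, which passed the filter only through mCherryHigh. Neither is support for a fall of the list. The fit without DTC 3 gave 6 lower and 0 higher. Further omissions gave 3 lower without mCherryHigh 6 and 2 lower without DTC 1. Of these genes, 1 passed the filter only through mCherryHigh, the group where it is high. Gstt3, a second theta enzyme, was at 4.57, 8.77 and 14.1 CPM in DTC and 20.2, 47.7 and 46.6 CPM in mCherryHigh. Gstp1, the pi-class enzyme, was at 69.3, 76 and 21.6 CPM in DTC and 236, 76.3 and 294 CPM in mCherryHigh. Gstp1 was lowest in DTC 3, and without that library its adjusted p was 0.15. Only 64.7% of the 50-base windows of Gstp1 and 44.5% of those of Gsta2 are unique among annotated transcripts, so both values are uncertain. Gstm7 was at 0, 0 and 0 CPM in DTC and 4.66, 3.67 and 2.86 CPM in mCherryHigh, and it passed the filter only through mCherryHigh. Of 21 enzymes that make and recycle glutathione, 2 were lower, near the 7.19% of all genes, and 1 was higher. Leaving DTC 3 out gave 4 lower and 1 higher. There were 1 to 4 lower over all omissions. Among them, 1 passed the filter only through DTC, the group where it is high. Slc3a2, the heavy chain of the cystine and amino acid exchangers, was at 139, 175 and 134 CPM in DTC and 356, 477 and 292 CPM in mCherryHigh, a difference of -1.30 (SE 0.34, adjusted p = 0.0156). Oplah, which opens the ring of 5-oxoproline in glutathione breakdown, was at 4.57, 9.74 and 1.08 and 41.9, 29.6 and 37.1 CPM. The higher member, the peroxidase relative Gpx7, reached at most 3.04 to 10.8 CPM in DTC, within the olfactory range. The adjusted p with any 1 library left out reached 0.111 for Gstt3 without mCherryHigh 5, 0.125 for Gsta2 without DTC 1, 0.0567 for Gsta3 without DTC 1, 0.0759 for Slc3a2 without mCherryHigh 5 and 0.0707 for Gpx7 without mCherryHigh 5.

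The broader NRF2 programme was lower in DTC across many members. Of 31 targets, 17 were called lower and 1 higher, beside 7.19% and 23.0% of all genes, and the median difference was -1.38. Every DTC library was below every mCherryHigh library for 19 targets, beside 13.2% of all genes. With quantile normalization 12 were lower. The counts without DTC 3 were 15 lower and 1 higher, and the 1 higher with all libraries was past the olfactory level. Single omissions gave 9 lower without DTC 1. All 17 lower members have at least 90% unique windows. The core of the antioxidant response element that NRF2 binds, searched as TGACNNNGC on both strands, was found in the RefSeq promoter windows (250 bases before to 50 after a start) of 10 of the 25 members matched by symbol and of 14% of all 27025 genes there. The windows of 4 lower members are shown with those letters in capitals because they hold the letters searched. The sequences run 5′ to 3′ on the gene's strand, up to the start at most, from RefSeq on GRCm38.p6.
G6pdx, chrX:74428889-74428977, minus strand: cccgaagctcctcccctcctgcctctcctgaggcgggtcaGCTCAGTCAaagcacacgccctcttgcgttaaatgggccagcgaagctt
Txnrd1, chr10:82859074-82859162, plus strand: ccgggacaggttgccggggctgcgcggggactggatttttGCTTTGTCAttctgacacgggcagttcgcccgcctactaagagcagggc
Abcc4, chr14:118706220-118706284, minus strand: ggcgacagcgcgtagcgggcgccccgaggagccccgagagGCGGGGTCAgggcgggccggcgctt
Nfe2l2, chr2:75704855-75704913, minus strand: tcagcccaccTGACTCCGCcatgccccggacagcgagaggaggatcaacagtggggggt
A match is a description of letters and not a measured binding site. When libraries were left out in turn, the largest adjusted p was 0.0502 for Txnrd1 without DTC 1, 0.0506 for Abcc4 without DTC 1 and 0.0697 for Nfe2l2 without DTC 1.

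Among NRF2 targets that supply NADPH, those of the pentose phosphate pathway were lower. G6pdx, the first enzyme of the pentose phosphate pathway, was at 32, 55.5 and 24.9 CPM in DTC and 141, 175 and 156 CPM in mCherryHigh. Every DTC library was below every mCherryHigh library, and the difference was -2.12 (SE 0.40, adjusted p = 0.00434). Pgd, the next dehydrogenase of that pathway, was at 136, 169 and 135 and 345, 501 and 532 CPM, a difference of -1.62 (SE 0.33, adjusted p = 0.00593). Tkt and Taldo1, of its non-oxidative arm, differed by -1.17 and -1.49. Me1, malic enzyme, was not called, at 67, 86.2 and 16.2 CPM against 52.8, 50 and 72 CPM with overlap (adjusted p = 0.699). The mCherryLow means of G6pdx and Pgd were 214 and 345 CPM, on the mCherryHigh side. Leaving out 1 library raised the adjusted p to at most 0.11 for Tkt without mCherryHigh 5.

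Among thiol and quinone enzymes of the list, some were lower and others were not called. Txnrd1, thioredoxin reductase, was at 115, 209 and 116 CPM in DTC and 374, 477 and 415 CPM in mCherryHigh. Srxn1, which repairs overoxidised peroxiredoxins, was at 16.7, 51.2 and 28.1 and 113, 203 and 156 CPM, a difference of -2.36 (SE 0.47). Nqo1, a quinone reductase, averaged 9.28 ± 5.11 CPM in DTC (SD, n = 3) and 38.2 ± 12.4 CPM in mCherryHigh (SD, n = 3). Ephx1, an epoxide hydrolase, was at 14.5, 20.5 and 22.7 and 117, 117 and 89 CPM, and Aldh3a1, an aldehyde dehydrogenase, at 12.2, 14.1 and 5.41 and 59, 71.8 and 90.5 CPM. For these genes the groups did not overlap. Txn1, thioredoxin, Prdx6, a peroxiredoxin, and Cbr1, a carbonyl reductase, overlapped between groups and were not called, with differences of 0.48, -0.18 and 1.01. Transcripts of NRF2 itself (Nfe2l2) were at 43.4, 90.1 and 79 CPM in DTC and 171, 227 and 186 CPM in mCherryHigh, a difference of -1.50 (SE 0.38, adjusted p = 0.0148). Without any 1 library, the adjusted p was at most 0.0502 for Txnrd1 without DTC 1, 0.0967 for Nqo1 without mCherryHigh 5 and 0.0697 for Nfe2l2 without DTC 1.

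Genes of heme and iron handling were part of the list. Hmox1, heme oxygenase, was at 25.9, 35.1 and 53 CPM in DTC and 79.2, 418 and 299 CPM in mCherryHigh. Blvrb, biliverdin reductase B, was at 30.4, 13.6 and 14.1 and 99.4, 89.8 and 121 CPM. Fth1, the ferritin heavy chain, was among the most abundant genes that were lower, at 2052, 1739.7 and 3820.4 CPM against 4565, 7016 and 7453 CPM. Ftl1, the light chain, was the only higher member, at 2297, 2147 and 4818 CPM against 972, 1288 and 897 CPM, but 53.8% of its windows are unique, so reads of near-identical copies may be in its value. Sqstm1, the autophagy receptor p62, was at 274, 430.2 and 262 CPM in DTC and 590.3, 3128 and 2787 CPM in mCherryHigh, and its adjusted p without DTC 3 was 0.0524. The adjusted p with any 1 library left out reached 0.165 for Fth1 without mCherryHigh 6, 0.103 for Ftl1 without mCherryHigh 6 and 0.0539 for Sqstm1 without DTC 1.

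**Figure D2:**
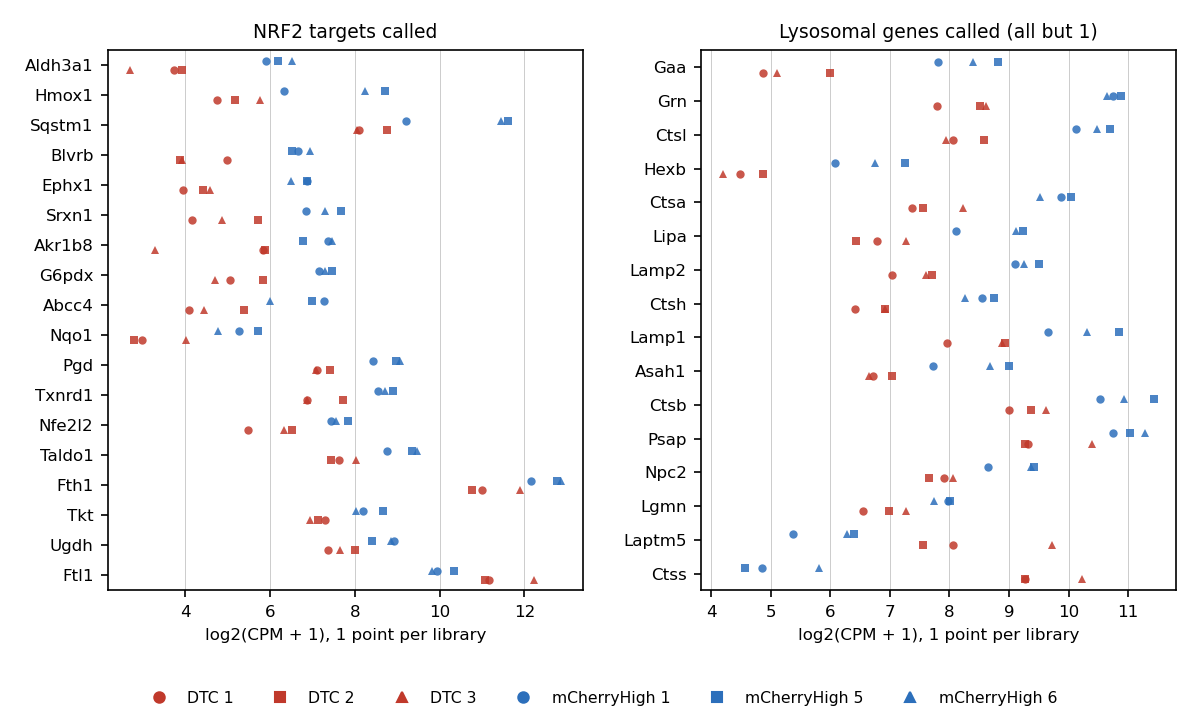
Level of called NRF2 targets (left) and of all but 1 of the called lysosomal genes (right) as log2(CPM + 1), 1 point per library, DTC in red and mCherryHigh in blue. Red points lie left of blue points in every row but Ftl1, Ctss and Laptm5.

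Many lysosomal genes were lower in DTC. The lysosome digests proteins, lipids and sugars taken up or delivered by autophagy. Of 25 tested genes, 15 were called lower and 2 higher, beside 7.19% and 23.0% of all genes. Their median difference was -1.44. With quantile normalization 10 were lower. With DTC 3 left out, 18 were lower and 2 higher, and both that were higher with all libraries were past the olfactory level. The letters CACGTG, the middle of the element through which TFEB and related factors act on lysosomal genes, were found on either strand in 7 of 19 matched members and in 8.09% of all genes. CACGTG reads the same on both strands, and no TGACNNNGC lies in the windows shown here for 4 lower members, with the letters in capitals.
Gaa, chr11:119267783-119267868, plus strand: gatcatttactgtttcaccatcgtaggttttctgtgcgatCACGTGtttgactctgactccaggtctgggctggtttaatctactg
Ctsl, chr13:64370711-64370770, minus strand: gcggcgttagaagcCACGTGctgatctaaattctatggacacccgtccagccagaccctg
Ctsa, chr2:164833721-164833772, plus strand: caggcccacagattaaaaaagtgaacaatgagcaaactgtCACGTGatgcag
Lamp1, chr8:13159060-13159145, plus strand: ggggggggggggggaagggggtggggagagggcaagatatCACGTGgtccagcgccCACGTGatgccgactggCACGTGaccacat
The Lamp1 window holds the letters in several places. Leaving out 1 library raised the adjusted p to at most 0.0773 for Lamp1 without DTC 1.

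Among lysosomal hydrolases, Gaa, the acid alpha-glucosidase, was at 28.2, 62.8 and 33.6 CPM in DTC and 222, 447 and 335 CPM in mCherryHigh, a difference of -3.01 (SE 0.42, adjusted p = 0.00168). The cysteine protease Ctsl was at 266, 381 and 246 and 1112, 1653 and 1430.1 CPM, and Ctsa, the protective protein of sialidase, at 164, 188 and 299.8 and 938, 1049 and 733 CPM. For these the groups did not overlap. Grn, progranulin, was at 219, 364 and 389.6 CPM in DTC and 1727, 1885 and 1603 CPM in mCherryHigh, a difference of -2.46 (SE 0.34, adjusted p = 0.00167). Psap, the precursor of the saposins, and Lamp1, a membrane glycoprotein, differed by -1.36 and -1.69. Without any 1 library, the adjusted p was at most 0.128 for Psap without DTC 1 and 0.0773 for Lamp1 without DTC 1.

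The 2 members that went the other way are known mainly from leukocytes. Ctss, a cathepsin of antigen-presenting cells, was at 616, 612 and 1193 CPM in DTC and 28, 22.6 and 55.1 CPM in mCherryHigh, a difference of 4.51 (SE 0.43, adjusted p = 0.000572). Laptm5, a lysosomal protein of blood cells, averaged 433 ± 360.3 CPM in DTC and 66.8 ± 23.1 CPM in mCherryHigh (SD, n = 3 each).

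Epithelial genes divided by type. Cldn4, a tight junction claudin, was at 0.761, 0 and 0 CPM against 65.2, 62.2 and 40.6 CPM, and the mCherryLow mean was 14.6 CPM. Every DTC library was under 1 CPM, so Cldn4 passed the filter only through mCherryHigh, and its levels are a description. A level of 0 here allows up to 3.25 CPM in DTC 3 and 1.46 CPM in DTC 2. Elf3, an epithelial ETS factor, was at 12.9, 25.8 and 0 CPM against 118, 138 and 87.3 CPM. Of the 41 epithelial genes, 6 were lower and 5 higher, beside 7.19% and 23.0% of all genes. In the fit that leaves out DTC 3, 5 were lower and 3 higher, and 1 of the 5 higher with all libraries was past the olfactory level. Further omissions gave 3 lower without DTC 1, 3 higher without mCherryHigh 5 and 3 higher without DTC 1. Among them, 1 passed the filter only through DTC and 1 only through mCherryHigh, each where it is high. The higher member past that level, Mal2, which takes part in apical transport, was at 76.9, 19.5 and 71.4 CPM against 6.21, 4.49 and 6.95 CPM. Epcam was at 21.3, 4.38 and 16.2 CPM against 10.9, 45.4 and 39.6 CPM and Cdh1, E-cadherin, at 58.6, 67.7 and 29.2 CPM against 73, 123 and 139 CPM. Neither was called (adjusted p = 0.249 and 0.0749). When libraries were left out in turn, the largest adjusted p was 0.0537 for Mal2 without DTC 1.

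Keratins showed the split within DTC most plainly. Krt17, a keratin of basal-like PDAC, was at 0, 1.46 and 34.6 CPM in DTC and 107, 108 and 105 CPM in mCherryHigh, lower in every DTC library (adjusted p = 0.00852). Krt19, the ductal keratin, was at 696, 885 and 74.7 CPM against 2369, 1102 and 1263 CPM and missed the threshold (adjusted p = 0.0634). Krt8 was at 1429, 1878 and 76.8 CPM against 923, 306 and 266 CPM, and Krt18 at 3014, 3046 and 169 CPM against 2482, 466 and 379 CPM. DTC 1 and DTC 2 were the highest of the 6 libraries for both and DTC 3 the lowest. Without DTC 3 the difference of Krt8 was 1.95 (adjusted p = 0.0406), and 72% of its windows are unique. Of 13 keratins, 3 were lower and 1 higher, beside 7.19% and 23.0% of all genes. Without DTC 3, 3 were lower and 2 higher, and the 1 higher with all libraries was not past the olfactory level. There were 0 to 2 higher over all omissions. Clu, clusterin, a secreted chaperone, was lower at 124, 158 and 28.1 CPM against 1659, 1653 and 1689 CPM, a difference of -4.32 (SE 0.55, adjusted p = 0.00143).

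**Figure D3:**
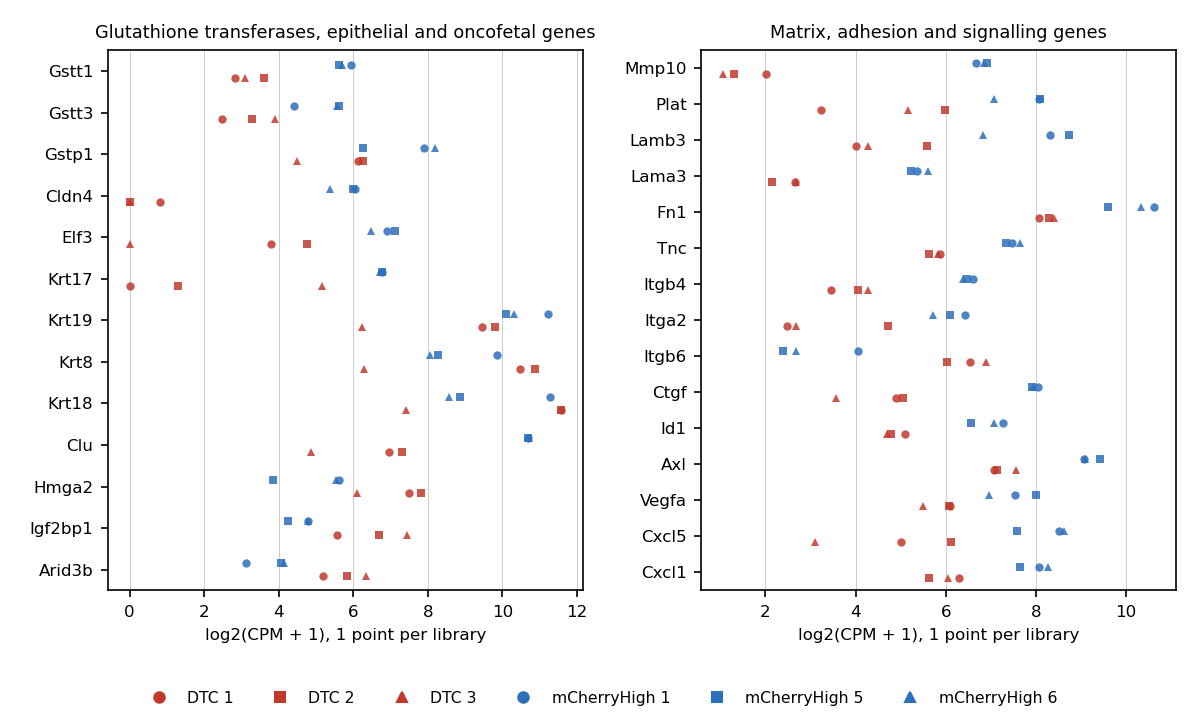
Level of named genes as log2(CPM + 1), 1 point per library, DTC in red and mCherryHigh in blue, with transferases, epithelial and oncofetal genes on the left and matrix, adhesion and signalling genes on the right. DTC 3 (red triangle) is the lowest library for Krt8, Krt18 and Krt19, while for Cldn4, Mmp10, Ctgf and Clu every DTC library is below every mCherryHigh library.

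Some matrix and adhesion genes were lower in DTC and others higher. The laminin chains Lamb3 and Lama3 pair with integrin alpha 6 beta 4 at hemidesmosomes. Lamb3 was at 15.2, 46.8 and 18.4 CPM in DTC and 317, 424 and 113 CPM in mCherryHigh, and Lama3 at 5.33, 3.41 and 5.41 and 40.4, 36.7 and 47.7 CPM. Their integrin subunit Itgb4 was at 9.89, 15.6 and 18.4 CPM against 96.3, 87.2 and 82.9 CPM, a difference of -2.56 (SE 0.43, adjusted p = 0.00277). All 3 were lower without overlap. Fibronectin, Fn1, was at 266, 313 and 337 CPM against 1583, 776 and 1288 CPM, and its receptor subunit Itga5 at 79.2, 89.2 and 28.1 CPM against 124, 353 and 308 CPM. Tnc, tenascin C, was at 57.8, 48.2 and 56.3 CPM against 176, 161 and 199.7 CPM, and Col4a1, of basement membrane collagen, at 105, 152 and 107 CPM against 326, 411 and 420.2 CPM. Of 43 matrix genes, 9 were lower and 6 higher, beside 7.19% and 23.0% of all genes. The fit without DTC 3 gave 9 lower and 3 higher, and 2 of the 6 higher with all libraries were past the olfactory level. Single omissions gave 2 higher without mCherryHigh 5, 2 higher without mCherryHigh 6 and 2 higher without DTC 1. Col1a2, a chain of fibrillar collagen, was higher at 81.4, 28.7 and 45.5 CPM against 4.66, 3.88 and 5.73 CPM, while its partner chain Col1a1 was at 58.6, 11.2 and 23.8 CPM against 23.3, 29.1 and 49.2 CPM and was not called. The adjusted p with any 1 library left out reached 0.0611 for Itga5 without DTC 3.

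Of 17 integrin subunits, 5 were lower and 5 higher, beside 7.19% and 23.0% of all genes. Leaving DTC 3 out gave 3 lower and 4 higher, and 3 of the 5 higher with all libraries were past the olfactory level. Other omissions gave 3 lower without mCherryHigh 5 and 3 higher without mCherryHigh 6. Itga2, a collagen receptor subunit, was at 4.57, 25.3 and 5.41 CPM in DTC and 85.4, 67.1 and 51.7 CPM in mCherryHigh, and Itga7, of a laminin receptor, at 0.761, 6.33 and 6.49 and 46.6, 46.2 and 45.6 CPM. Itgb6, an epithelial subunit that binds latent TGF-beta, was higher in DTC at 91.3, 64.3 and 118 CPM against 15.5, 4.29 and 5.42 CPM (difference 3.44, SE 0.55, adjusted p = 0.00239). Itga4, common on leukocytes, and Itga9 were higher as well, at 47.2, 35.1 and 59.5 CPM and 36.5, 39 and 94.2 CPM in DTC. Their mCherryHigh libraries were at 1.55, 1.53 and 4.19 CPM and 6.21, 2.65 and 0.102 CPM.

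Of 26 secreted proteases and their inhibitors, 7 were lower and 1 higher, beside 7.19% and 23.0% of all genes. Mmp10, stromelysin 2, was at 3.04, 1.46 and 1.08 CPM in DTC and 101, 120.0 and 114 CPM in mCherryHigh, a difference of -5.35 (SE 0.53, adjusted p = 0.000572). Its relative Mmp3 was at 11.4, 3.90 and 11.9 CPM against 38.8, 24.1 and 40.9 CPM, and Plat, tissue plasminogen activator, at 8.37, 61.9 and 34.6 CPM against 266, 273 and 134 CPM. Adam10, a membrane sheddase, was at 55.6, 94 and 49.8 CPM against 221, 270.3 and 194 CPM. The counts without DTC 3 were 4 lower and 0 higher, and the 1 higher with all libraries was past the olfactory level. Further omissions gave 3 lower without mCherryHigh 5, 4 lower without mCherryHigh 6 and 4 lower without DTC 1. The mCherryLow means of Mmp10 and Plat were 62.9 and 76.4 CPM, between the 2 groups. Leaving out 1 library raised the adjusted p to at most 0.103 for Mmp3 without mCherryHigh 6.

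Several genes of TGF-beta, BMP and YAP signalling were lower in DTC. Of 29 genes of TGF-beta and BMP signalling, 8 were lower and 0 higher, beside 7.19% and 23.0% of all genes. Their median difference was -0.74. With DTC 3 left out, 8 were lower and 0 higher. There were 5 lower without DTC 1. The ligand Tgfb1 was at 91.3, 151 and 77.9 CPM against 326, 223 and 482 CPM. Ltbp3, which stores latent TGF-beta in the matrix, was at 41.1, 36.5 and 14.1 CPM against 71.5, 286 and 217 CPM. The BMP targets Id1 and Id3 were at 33.5, 26.8 and 24.9 CPM and 22.8, 19.5 and 26 CPM in DTC, and at 152, 94 and 133 CPM and 101, 66.8 and 77.3 CPM in mCherryHigh. Ctgf, a target of both TGF-beta and YAP, was at 28.9, 32.2 and 10.8 CPM against 263, 239 and 244 CPM, a difference of -3.46 (SE 0.45, adjusted p = 0.00146). Axl, a receptor tyrosine kinase counted among YAP targets and mesenchymal genes, was at 134, 139.8 and 186 CPM against 533, 683 and 546 CPM. Ankrd1, another YAP target, was not called, at 278, 244 and 55.2 CPM against 73, 72.9 and 101 CPM, and without DTC 3 it was higher (difference 1.67, adjusted p = 0.0188). Of 18 YAP targets, 4 were lower and 0 higher, beside 7.19% and 23.0% of all genes. Of their differences, 8 were above 0 and 10 below. Their median was -0.26, and 0.18 without DTC 3. In the fit that leaves out DTC 3, 3 were lower and 1 higher. Without any 1 library, the adjusted p was at most 0.0554 for Tgfb1 without DTC 1.

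Hypoxia-response genes were lower in 8 of 26 cases and higher in 3, beside 7.19% and 23.0% of all genes. Without DTC 3, 7 were lower and 3 higher, and 1 of the 3 higher with all libraries was past the olfactory level. Other omissions gave 4 lower without mCherryHigh 5 and 5 lower without DTC 1. Vegfa, the vessel growth factor, was at 67, 66.3 and 44.4 CPM in DTC and 185, 256 and 124 CPM in mCherryHigh, with a mCherryLow mean of 45.8 CPM. P4ha1, a collagen prolyl hydroxylase subunit, was at 48.7, 35.6 and 33.6 CPM against 134, 185 and 152 CPM. Epas1, which encodes HIF-2 alpha and is also abundant in endothelium, was higher at 128, 89.2 and 259 CPM against 15.5, 16.3 and 48.2 CPM. Glucose and lactate transport was lower in part: Slc16a3, the lactate exporter MCT4, was at 16, 12.2 and 21.6 CPM against 77.7, 83.6 and 60.6 CPM, and Slc2a1, the transporter GLUT1, averaged 32 ± 25.4 against 89.6 ± 31.7 CPM (SD, n = 3 each). Slc2a3, GLUT3, was higher at 54, 37 and 104 CPM against 4.66, 1.33 and 6.03 CPM. The adjusted p with any 1 library left out reached 0.0567 for Vegfa without mCherryHigh 5 and 0.142 for Slc2a1 without DTC 3.

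In the list of the unfolded protein and integrated stress response, 8 of 34 genes were lower and 2 higher. Over all genes, 7.19% were lower and 23.0% higher. The fit without DTC 3 gave 7 lower and 0 higher, and 1 of the 2 higher with all libraries was past the olfactory level. Further omissions gave 4 lower without mCherryHigh 5, 3 lower without DTC 1 and 0 to 2 higher over all omissions. Xbp1, the spliced transcription factor of the unfolded protein response, was at 92.9, 141 and 117 CPM in DTC. In mCherryHigh it was at 410.1, 435 and 356 CPM, a difference of -1.78 (SE 0.33, adjusted p = 0.00402). Hspa5, the endoplasmic reticulum chaperone BiP, was at 836, 1427 and 309.5 CPM against 2254, 2419 and 1719 CPM and was lowest in DTC 3. Its adjusted p was 0.0376, and 0.0709 without DTC 3. The higher members were Atf5, at 21.3, 12.7 and 39 CPM against 1.55, 0.816 and 5.22 CPM, and Mthfd2, a mitochondrial folate enzyme, with means of 57.2 ± 24.3 and 11.5 ± 8.96 CPM (SD, n = 3 each). When libraries were left out in turn, the largest adjusted p was 0.102 for Hspa5 without mCherryHigh 5, 0.0546 for Atf5 without DTC 3 and 0.115 for Mthfd2 without DTC 1.

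Proliferation genes gave few calls. Of 43 DNA replication genes, 2 were higher and 0 lower, beside 23.0% and 7.19% of all genes. Leaving DTC 3 out gave 0 lower and 3 higher, and both that were higher with all libraries were past the olfactory level. There were 0 to 5 higher over all omissions. Of 48 mitosis genes, 3 were higher and 2 lower, beside 23.0% and 7.19% of all genes. The counts without DTC 3 were 1 lower and 6 higher, and 2 of the 3 higher with all libraries were past the olfactory level. Single omissions gave 1 to 4 lower over all omissions and 5 higher without mCherryHigh 1. Pbk, a mitotic kinase, was at 64.7, 104 and 66 CPM against 26.4, 18.6 and 20 CPM, while its mCherryLow mean was 85.2 CPM, on the DTC side. Ccnf, cyclin F, was lower at 6.85, 20 and 8.66 CPM against 112, 157 and 32.4 CPM. Among cell cycle inhibitors and p53 targets, 4 of 30 were higher and 3 lower, beside 23.0% and 7.19% of all genes. With DTC 3 left out, 3 were lower and 4 higher, and 2 of the 4 higher with all libraries were past the olfactory level. Other omissions gave 6 lower without mCherryHigh 1, 1 lower without mCherryHigh 5, 1 lower without mCherryHigh 6, 2 higher without mCherryHigh 1 and 2 higher without DTC 1. Perp, a p53 target of desmosomes, was at 26.6, 19 and 34.6 CPM against 129, 230.4 and 152 CPM, and Ccng1 at 87.5, 79.4 and 96.3 CPM against 179, 185 and 252 CPM. Zmat3 and the BH3 gene Bbc3 were higher, at 41.1, 28.3 and 71.4 CPM and 34.2, 14.1 and 15.2 CPM in DTC. In mCherryHigh they were at 3.11, 4.08 and 6.14 CPM and 0, 0.204 and 2.15 CPM. So p53 targets did not share a direction. Leaving out 1 library raised the adjusted p to at most 0.0944 for Ccng1 without mCherryHigh 6.

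Most genes of cytosolic ribosomal proteins, many of which have near-identical copies, were higher. Of 74 cytosolic ribosomal protein genes, 64 were higher and 0 lower, beside 23.0% and 7.19% of all genes. Their median difference was 2.69. In the fit that leaves out DTC 3, 0 were lower and 64 higher, and 61 of the 64 higher with all libraries were past the olfactory level. Among them, 4 passed the filter only through DTC, the group where they are high. Only 17 have at least 90% unique windows, and 12 of these were higher, with a median of 1.61. Gapdh was at 432, 519.8 and 284 CPM in DTC and 28, 8.98 and 10.3 CPM in mCherryHigh, and 76.8% of its windows are unique. Some other enzymes of glycolysis were lower, such as Pfkl, phosphofructokinase of liver type, at 45.7, 39.9 and 28.1 CPM against 174, 132 and 105 CPM, and Aldoa at 389.7, 441 and 353 CPM against 988, 898 and 869.8 CPM. Over all tested genes under 90% unique windows, 29.1% were higher and 2.47% lower, against 21.4% and 8.12% of the rest. How reads that fit several genes were counted is not given in the sources used here, so levels of such genes are uncertain. The same holds for Hspa8 and Hsp90aa1, the cytosolic chaperones, at 567, 765 and 330.1 CPM and 772, 746 and 194 CPM in DTC, with 59.6% and 50.5% unique windows. Of 15 heat shock genes, 4 were higher and 0 lower, near the 23.0% of all genes that were higher. All 4 have under 90% unique windows. Without DTC 3, 0 were lower and 7 higher, and all 4 that were higher with all libraries were past the olfactory level. There were 0 to 2 lower over all omissions, 2 higher without DTC 1 and 2 higher without DTC 2. Without any 1 library, the adjusted p was at most 0.0656 for Aldoa without DTC 1.

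Some subunits of the respiratory chain were lower. Of 62, 11 were lower and 4 higher, beside 7.19% and 23.0% of all genes. Among the 52 with at least 90% unique windows, 11 were lower and 1 higher, and the rest were not called. Atp5b, the catalytic subunit of ATP synthase, was at 421, 807 and 316 CPM in DTC and 1762, 1555 and 1368 CPM in mCherryHigh. Uqcrc1, of complex III, was at 120.3, 212 and 86.6 CPM against 680.4, 566 and 382 CPM, and Sdha, of complex II, at 116, 117 and 95.2 CPM against 334, 402 and 242 CPM. With quantile normalization 5 of the list were lower and 5 higher. The fit without DTC 3 gave 8 lower and 5 higher, and all 4 that were higher with all libraries were past the olfactory level. Single omissions gave 7 lower without mCherryHigh 1, 5 lower without DTC 1, 2 higher without mCherryHigh 5 and 2 higher without DTC 1. Among MYC and ribosome biogenesis factors, 6 of 40 were higher and 0 lower, a share below the 23.0% of all genes, and the median difference was 0.03. Leaving DTC 3 out gave 1 lower and 10 higher, and 4 of the 6 higher with all libraries were past the olfactory level. Other omissions gave 1 higher without DTC 1 and 1 higher without DTC 2. Rrs1, a ribosome assembly factor, was at 139, 182 and 47.6 CPM against 1.55, 11 and 3.07 CPM, with a mCherryLow mean of 77 CPM. The adjusted p with any 1 library left out reached 0.0571 for Atp5b without DTC 1.

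Some oncofetal genes, active in embryonic tissue and regained in some tumours, were higher in DTC. Of 13 tested, 5 were higher and 0 lower, beside 23.0% of all genes, and 3 of these were past the olfactory level. Without DTC 3, 2 of the 13 were higher, beside 2912 of all 19700 genes, and 3 were higher without DTC 1 and 3 without DTC 2. Hmga2, a chromatin protein of the let-7 pathway that SIRT6 loss is known to release in PDAC, was at 179, 225 and 68.2 CPM in DTC and 48.2, 13.3 and 45.2 CPM in mCherryHigh. Its difference was 2.15 (SE 0.58, adjusted p = 0.019), and the mCherryLow mean was 16.2 CPM. Igf2bp1, an RNA-binding protein of the same pathway, was at 46.4, 102 and 172 CPM against 26.4, 18.1 and 26.7 CPM, highest in DTC 3, and its adjusted p without DTC 3 was 0.0607. Arid3b was at 35.8, 55.5 and 80.1 CPM against 7.77, 15.7 and 16.7 CPM. Onecut2, a factor of pancreas and liver development, was at 296, 236 and 360.4 CPM against 101, 32 and 78.8 CPM (adjusted p = 0.00579). When libraries were left out in turn, the largest adjusted p was 0.0861 for Hmga2 without DTC 1 and 0.0572 for Arid3b without DTC 3.

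Many genes of the lung's own cells were higher in DTC. In bulk samples, fewer cells of a type and less RNA per cell cannot be told apart. Of 31 genes of interstitial macrophages and monocytes, 21 were higher and 0 lower, beside 23.0% and 7.19% of all genes. The counts without DTC 3 were 0 lower and 19 higher, and 13 of the 21 higher with all libraries were past the olfactory level. In this list, 3 passed the filter only through DTC, the group where they are high. C1qb is among them, so its levels are a description. The complement genes C1qa, C1qb and C1qc, made by tissue macrophages, did not overlap between the groups. C1qb was at 76.9, 60.9 and 98.5 CPM in DTC and 0, 0 and 0 CPM in mCherryHigh, with a mCherryLow mean of 8.61 CPM. C1qa was at 68.5, 58.5 and 120.1 CPM against 1.55, 0 and 0 CPM. Its 1.55 CPM is 1 read, so the levels of C1qa are a description too. Lyz2, lysozyme of myeloid cells, was at 1929, 1468 and 3966 CPM against 52.8, 286 and 139.9 CPM, and Ccl6, a macrophage chemokine, at 1675, 1299 and 4646 CPM against 26.4, 49.4 and 52.9 CPM. Both were highest in DTC 3.

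Among alveolar macrophage genes, 10 of 23 were higher and 2 lower, beside 23.0% and 7.19% of all genes. With DTC 3 left out, 2 were lower and 6 higher, and 7 of the 10 higher with all libraries were past the olfactory level. Chi3l3, a chitinase-like secreted protein, showed the largest rise among the genes ranked, with 73.6% unique windows. It was at 1167, 967 and 2416 CPM in DTC and 1.55, 0 and 0.102 CPM in mCherryHigh. The difference was 9.95 (SE 0.52, adjusted p = 1.16e-05). Its 1.55 and 0.102 CPM are 1 read each, so the size of the difference depends on the 1 CPM added before taking logs. In mCherryHigh, only the 1 read of mCherryHigh 1 reaches 1 CPM. The levels of Chi3l3 are thus a description, and its adjusted p is no support for a rise. Marco, a scavenger receptor, was at 22.1, 11.2 and 75.8 CPM against 1.55, 0.102 and 0 CPM, and Car4 at 34.2, 67.7 and 155 CPM against 4.66, 0 and 0 CPM. Ear2, an eosinophil-associated ribonuclease of alveolar macrophages, was at 162, 149.6 and 333 CPM against 1274, 0 and 0 CPM. It was read in 1 of the 3 mCherryHigh libraries and not called. The lower members, Cd9 and Il1rn, are also made by epithelial cells. Cd9 was at 507, 732 and 619 CPM against 2044, 2475 and 2249 CPM and Il1rn at 54.8, 111 and 142 CPM against 469, 476 and 774 CPM.

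**Figure D4:**
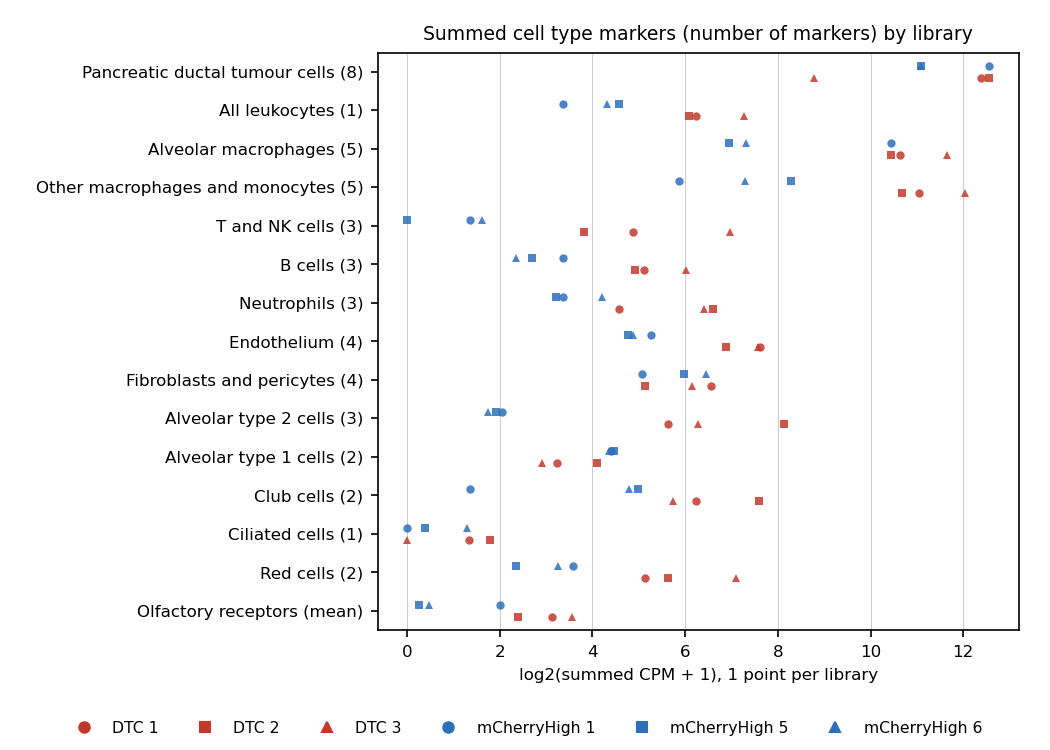
Summed level of the marker genes of each cell type (number of markers in brackets) and the mean of olfactory receptors as log2(CPM + 1), 1 point per library, DTC in red and mCherryHigh in blue. DTC 3 (red triangle) is lowest for the ductal tumour markers and highest for both macrophage sets and T and NK cells. For alveolar macrophages, mCherryHigh 1 (blue circle) is near DTC 2 through Ear2, which makes up most of its sum.

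MHC class II genes, which present antigen from dendritic cells, macrophages and B cells, were higher in 5 of 10 cases and lower in 0. Over all genes, 23.0% were higher and 7.19% lower. In the fit that leaves out DTC 3, 0 were lower and 5 higher, and 4 of the 5 higher with all libraries were past the olfactory level. H2-Eb1 was at 227, 225 and 154 CPM in DTC and 3.11, 0 and 4.29 CPM in mCherryHigh, H2-Aa at 253, 245 and 176 and 4.66, 5.00 and 3.58 CPM, and their regulator Ciita at 33.5, 38 and 44.4 and 1.55, 0.102 and 1.43 CPM. DTC 3 was the lowest DTC library for H2-Eb1 and H2-Aa, unlike for Lyz2. Cd74, the invariant chain, was at 738, 988 and 621 CPM against 258, 349 and 362 CPM, and the mCherryHigh libraries held it at a level well above their class II chains. When libraries were left out in turn, the largest adjusted p was 0.0655 for Cd74 without DTC 1.

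T and NK cell genes were higher in many cases, mostly at low level. Of 20 T and NK cell genes, 14 were higher, beside 23.0% of all genes. Without DTC 3, 0 were lower and 7 higher, and 3 of the 14 higher with all libraries were past the olfactory level. Other omissions gave 9 higher without mCherryHigh 5 and 9 higher without DTC 1. Cd3g and Gzma passed the filter only through DTC, where they are high. Cd3g, of the T cell receptor complex, was at 17.5, 4.87 and 48.7 CPM in DTC and 0, 0 and 0 CPM in mCherryHigh, and Gzma, granzyme A, at 14.5, 10.7 and 97.4 and 0, 0 and 0 CPM, both highest in DTC 3. Of 13 B cell genes, 5 were higher, beside 23.0% of all genes. Their median difference was 0.69, near that of all genes. The fit without DTC 3 gave 0 lower and 3 higher, and 1 of the 5 higher with all libraries was past the olfactory level. Further omissions gave 3 higher without mCherryHigh 5, 3 higher without mCherryHigh 6 and 3 higher without DTC 1. Their sums lay between 295 and 374 CPM in DTC and between 211 and 723 CPM in mCherryHigh, and the defining marker Cd79a was at 0.761, 0.487 and 4.33 CPM in DTC and was not called. Of 17 neutrophil and mast cell genes, 8 were higher, beside 23.0% of all genes. Leaving DTC 3 out gave 0 lower and 2 higher, and 0 of the 8 higher with all libraries were past the olfactory level. There were 0 to 3 lower over all omissions, 4 higher without mCherryHigh 5, 4 higher without mCherryHigh 6 and 5 higher without DTC 1. Among them, 1 passed the filter only through DTC, the group where it is high. S100a8 was at 12.2, 39.5 and 46.5 CPM against 4.66, 4.29 and 7.87 CPM. Leaving out 1 library raised the adjusted p to at most 0.098 for S100a8 without DTC 3.

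Endothelial genes were higher in 15 of 27 cases and lower in 1, with 8 higher under quantile normalization. Over all genes, 23.0% were higher and 7.19% lower. The counts without DTC 3 were 0 lower and 13 higher, and 5 of the 15 higher with all libraries were past the olfactory level. Vwf, von Willebrand factor, was at 105, 73.1 and 106 CPM in DTC and 14, 11.2 and 4.91 CPM in mCherryHigh. Emcn, endomucin of capillaries and veins, was at 104, 39.5 and 115 and 4.66, 0.612 and 1.02 CPM, and Pecam1 at 49.5, 28.7 and 53 and 7.77, 9.49 and 10.8 CPM. Cdh5, VE-cadherin, was not called, at 18.3, 12.7 and 18.4 CPM against 9.32, 5.41 and 12.5 CPM. Fibroblast and mural genes gave 6 higher and 0 lower of 22, near the 23.0% of all genes, and Dcn, Pdgfra and Pdgfrb were not among them. With DTC 3 left out, 0 were lower and 3 higher, and 1 of the 6 higher with all libraries was past the olfactory level. Without any 1 library, the adjusted p was at most 0.0617 for Pecam1 without DTC 1.

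Lung epithelium followed no single library. Of 22 alveolar type 1 and type 2 genes, 9 were higher and 3 lower, beside 23.0% and 7.19% of all genes. In the fit that leaves out DTC 3, 3 were lower and 7 higher, and 3 of the 9 higher with all libraries were past the olfactory level. Among them, 3 passed the filter only through DTC, the group where they are high. Sftpc, surfactant protein C of type 2 cells, was at 9.89, 175 and 7.58 CPM in DTC, highest in DTC 2, against 1.55, 0 and 0.102 CPM in mCherryHigh. Sftpa1 was at 32, 96.9 and 68.2 CPM against 1.55, 2.65 and 2.25 CPM. Among club and ciliated cell genes, 8 of 13 were higher and 1 lower, beside 23.0% and 7.19% of all genes. With quantile normalization 3 were higher, beside 1615 of all 19700 genes. Without DTC 3, 0 were lower and 6 higher, and 4 of the 8 higher with all libraries were past the olfactory level. There were 5 higher without DTC 1. In this list, 1 passed the filter only through DTC, the group where it is high. Scgb1a1, the club cell secretory protein, was at 69.3, 185 and 43.3 CPM against 1.55, 30.7 and 26 CPM, and Bpifa1, an airway surface protein, at 49.5, 92.6 and 34.6 and 1.55, 0.102 and 0 CPM. The type 1 markers Ager and Aqp5 were not called. The adjusted p with any 1 library left out reached 0.168 for Scgb1a1 without DTC 2.

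The summed leukocyte, macrophage, T cell, endothelial, type 2 and club cell markers were higher in DTC beside every tumour-cell result above. The sum of the alveolar type 1 markers was lower, at 6.49 to 16.1 CPM in DTC and 19.6 to 21.1 CPM in mCherryHigh. The fibroblast and pericyte sum overlapped, at 34.1 to 93.6 CPM in DTC and 32.6 to 86.8 CPM in mCherryHigh, and so did the ciliated cell marker. For the leukocyte marker Ptprc (CD45), the levels were 73.8, 66.3 and 154 CPM in DTC and 9.32, 22.9 and 18.8 CPM in mCherryHigh. The sums of the interstitial macrophage list lay between 3695 and 8889 CPM in DTC and between 1106 and 1760.0 CPM in mCherryHigh. Their part in the lower tumour-cell genes was not tested.

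Inflammatory genes were divided. The neutrophil chemokines Cxcl1 and Cxcl5 were lower in DTC, Cxcl1 at 77.6, 48.7 and 64.9 CPM against 269, 198 and 309.6 CPM and Cxcl5 at 31.2, 68.2 and 7.58 CPM against 363, 190.1 and 393 CPM. Their mCherryLow means were 77.9 and 87.4 CPM. Lcn2, lipocalin 2, was at 4.57, 17.1 and 4.33 CPM against 24.9, 61.2 and 118 CPM. Il1b and Cxcl2, both made by myeloid cells, were higher, Il1b at 22.1, 53.6 and 80.1 CPM against 0, 6.63 and 10 CPM, and Cxcl2 with means of 146 ± 123 and 28.5 ± 21 CPM (SD, n = 3 each). Of 31 NF-kB targets and chemokines, 6 were lower and 3 higher, beside 7.19% and 23.0% of all genes. The fit without DTC 3 gave 4 lower and 1 higher, and 2 of the 3 higher with all libraries were past the olfactory level. Single omissions gave 3 lower without mCherryHigh 5, 2 lower without mCherryHigh 6 and 2 lower without DTC 1. Of these genes, 1 passed the filter only through DTC, the group where it is high. Leaving out 1 library raised the adjusted p to at most 0.0569 for Lcn2 without DTC 1, 0.0861 for Il1b without DTC 3 and 0.171 for Cxcl2 without DTC 3.

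Among 37 interferon-stimulated genes, 5 were lower and 1 higher, beside 7.19% and 23.0% of all genes. Leaving DTC 3 out gave 3 lower and 3 higher, and the 1 higher with all libraries was past the olfactory level. Other omissions gave 2 lower without mCherryHigh 6, 3 lower without DTC 1, 3 lower without DTC 2 and 1 to 3 higher over all omissions. Usp18, a brake on type I interferon signalling, was at 16.7, 13.2 and 26 CPM in DTC and 171, 60.4 and 159 CPM in mCherryHigh, and Ifit1 at 29.7, 23.9 and 45.5 and 224, 66.1 and 199 CPM. The higher one was Cxcl9, a chemokine induced by interferon gamma, at 200.2, 197 and 71.4 CPM against 3.11, 5.00 and 10.8 CPM (difference 4.42, SE 0.58, adjusted p = 0.00146). In MHC class I presentation, 4 of 17 were lower and 2 higher, beside 7.19% and 23.0% of all genes. The counts without DTC 3 were 3 lower and 1 higher, and both that were higher with all libraries were past the olfactory level. Further omissions gave 1 lower without mCherryHigh 5, 2 lower without mCherryHigh 6, 1 lower without DTC 1 and 0 to 3 higher over all omissions. H2-D1, a classical heavy chain, was at 1434, 2148 and 1759 CPM against 3192, 4221 and 3782 CPM, and Psmb8, an immunoproteasome subunit, was higher at 117, 101 and 156 CPM against 4.66, 24.4 and 50.2 CPM. Without any 1 library, the adjusted p was at most 0.197 for H2-D1 without DTC 1 and 0.0748 for Psmb8 without DTC 3.

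**Figure D5:**
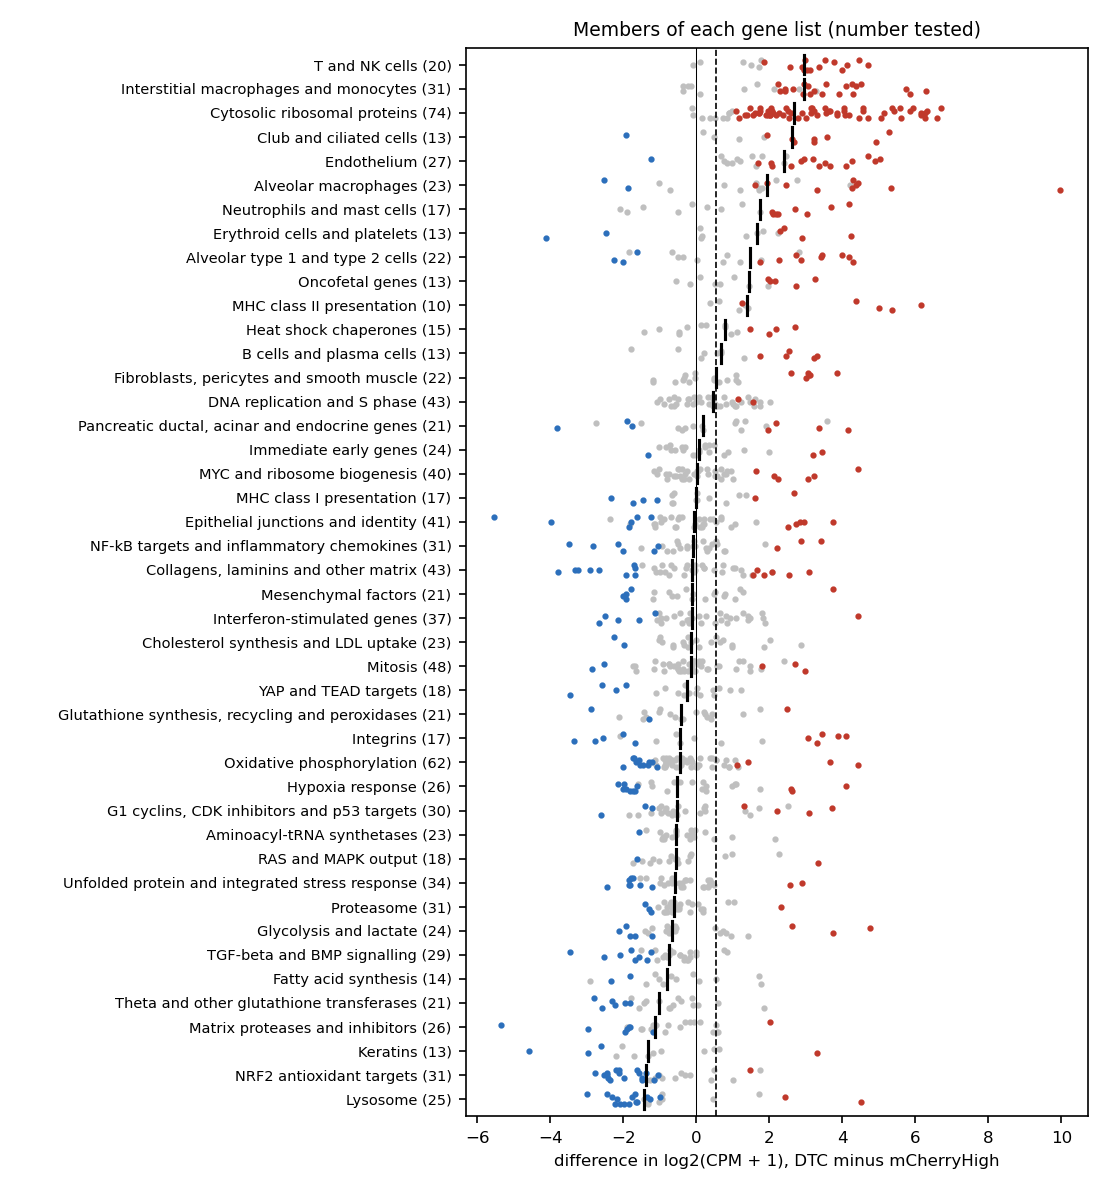
Difference in log2(CPM + 1), DTC minus mCherryHigh, for each tested member of each gene list (number tested in brackets), with red for called higher, blue for called lower, grey for not called, a black bar for the list median, and a dashed line at the median of all genes (0.55). The lysosome (-1.44) and NRF2 (-1.38) lists have the lowest medians, and the T and NK cell (2.95) and interstitial macrophage (2.95) lists the highest.

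The largest falls outside those lists reached further genes. Ranked among called genes that averaged 10 CPM or more in mCherryHigh and did not overlap, the 12 largest included Syn1, at 3.04, 15.6 and 1.08 CPM in DTC and 130.5, 96.3 and 114 CPM in mCherryHigh, and Serpinf1, the anti-angiogenic factor PEDF, at 2.28, 6.82 and 4.33 and 63.7, 119.8 and 75.5 CPM. Syn1 encodes a synaptic vesicle protein. Car2, carbonic anhydrase 2 of duct cells, was lower at 3.04, 5.85 and 3.25 CPM against 40.4, 67.2 and 113 CPM. Among the 12 largest rises, Clec4n, the myeloid lectin dectin-2, was at 98.2, 50.2 and 165 CPM against 1.55, 0 and 0 CPM. Its 1.55 CPM is 1 read, so the levels of Clec4n are a description. Mrgprb1, a receptor of the Mas family, was at 137, 69.2 and 185 CPM against 0, 1.43 and 2.25 CPM, and Tet1, a methylcytosine dioxygenase, at 114, 75.5 and 223 CPM against 1.55, 1.22 and 0.818 CPM. Clec4n, Mrgprb1 and Tet1 were all lowest in DTC 2 and highest in DTC 3, the same order as for the olfactory receptor means. Chi3l3, Lyz2, Ccl6, Onecut2 and Itgb6, named above, had that order too, so it is not particular to these genes. Outside these, Klf2, a Kruppel-like factor of quiescent endothelium and T cells, was higher at 217, 232 and 117 CPM against 15.5, 22.9 and 18.8 CPM (difference 3.19, SE 0.42, adjusted p = 0.00146). Hbegf, a ligand of the EGF receptor, was at 259.5, 285 and 55.2 CPM against 1.55, 48.9 and 31.4 CPM, and the MAPK phosphatase Dusp6 was lower at 69.3, 121 and 63.9 CPM against 264, 209 and 289 CPM. When libraries were left out in turn, the largest adjusted p was 0.116 for Hbegf without DTC 1.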

How the data were processed

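The RNAqueous-Micro kit gave the RNA, which was made into libraries with SMART-seq v4 and Nextera XT, per the labels' protocols. The authors deposited CPM values, reads of a gene scaled to the library's total, for 24012 genes. The build was mm9, per the submitters' processing notes; the aligner is not given in the sources used here, nor is the counter. All CPM values were whole multiples of 1 read within 0.01 read in each of the 6 libraries, so whole reads and totals were recovered for 100% of values. The replicates are the 3 libraries of each label. Genes with at least 1 CPM in 3 or more of the 6 libraries were tested on log2(CPM + 1) in limma (version 3.58.1, R 4.3.3). The fit had group as its only term and a trend of variance on level, and two-sided p-values were adjusted by Benjamini-Hochberg over every gene tested, with a threshold of 0.05. Fold changes on this scale understate changes of low genes. The same procedure was tested on simulated data. Of 50 genes changed at each fold, it recovered 2 at 2-fold, 17 at 4-fold, 39 at 8-fold and 49 at 16-fold. It called 4 of 19369 unchanged genes. A gene not called is therefore not shown to be unchanged.

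The members, gene lists (45 lists, 1191 of 1226 entries found) and named genes were chosen with earlier results of these data known. The text names Gstt1, Sirt6, Trp53, fixed cell type markers and up to 6 members with the smallest p of each list. It also names the 12 largest changes and 6 most abundant genes in each direction. These were ranked among called genes without overlap and averaging 10 CPM or more where higher. The ranking passed over predicted genes, pseudogenes, ribosomal protein genes, Xist and Y-linked genes. Some genes that this rule takes, and part of the genotype label, are not reported here. Further list members (among them Nqo1, Tkt, Laptm5, Mthfd2, Cxcl2, Slc2a1, Me1, Txn1, Prdx6 and Cbr1), the olfactory receptors and the repeat-like entries were chosen after their values were seen. Unique windows are the share of a gene's 50-base windows found in no other gene's transcripts in a GENCODE annotation of a later build (94% of gene IDs matched). Promoter windows come from RefSeq on GRCm38.p6. Alternatives were other pseudocounts, filters and scalings, all 9 libraries in 1 fit, array weights, leaving out each library, count tests of the recovered reads (edgeR 4.0.16, DESeq2 1.42.0), and thinning. Counts of unique genes, counts above the olfactory level and removal of repeat-like entries were added after the data were seen.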

Additional observations from a re-analysis of the deposited data

How the results depend on the processing

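The number of genes higher in DTC was 1615 with quantile normalization, 6844 with array weights and 1000 among genes above every olfactory receptor, against 4532. The number lower was 2701 with array weights and 2198 with edgeR on the recovered reads, against 1417. Across fits that each left out a library, the number higher ran from 2627 without DTC 1 to 5244 without mCherryHigh 1, and the number lower from 590 to 1507 in the same 2 fits. Fits with a library left out have fewer samples. Under the other alternatives both counts stayed within 1.5 times. Gstt1 kept its direction and its side of the threshold under every alternative in which it was tested. Of the named genes called in the report, 114 of 137 kept their direction and stayed under the threshold with quantile normalization, 127 with edgeR and 103 without DTC 1. The named genes that changed sign under an alternative were all ones not called, and the cause was not tested. With quantile normalization the differences were -0.52 for Cbr1, -1.11 for Cd79a, -0.24 for Cdh5, 0.25 for Prdx6, -0.37 for Pdgfra and -0.011 for Pdgfrb. The difference was 0.077 for Col1a1 and 0.011 for Me1 with array weights, and with edgeR -1.20 for Ear2 and -0.12 for Pdgfrb. With 1 library left out, the difference ranged from -0.37 to 0.69 for Cd79a, -0.93 to 0.21 for Col1a1, -0.70 to 0.33 for Dcn, -0.089 to 1.99 for Krt18, -0.34 to 1.95 for Krt8, -0.77 to 0.40 for Me1, -0.45 to 0.19 for Prdx6 and -0.12 to 1.85 for Pdgfrb.

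No paired analysis was possible because DTC and mCherryHigh share only the label number 1. Depth limits low genes: a level of 0 in mCherryHigh 1 allows up to 4.66 CPM.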
